A study of Homo sapiens with 4 samples.

Results

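The proteasome genes described here are 40 of the 63677 genes in the count tables. They are 14 genes of the 20S core, 17 of the 19S regulatory particle, 4 activators, 3 assembly factors of the core, the 19S chaperone PSMD5 and the inhibitor PSMF1. Members were found by symbol, through their Ensembl identifiers, on the primary chromosomes. All 40 were found, and PSMB3 was placed by its position because its identifier is not in the table of names. All 40 passed the filter on low counts, which kept 15398 genes.

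The study asked what the loss of HMGB1, an abundant nuclear protein that binds chromatin and RNA, does to gene expression. RNA-seq was performed on poly(A) RNA of IMR90, primary human fetal lung fibroblasts, at passage 5. Control libraries came from cells treated with a non-targeting siRNA (NTC), and HMGB1 knockdown libraries from cells treated with siRNA against HMGB1. In both groups RNAiMAX was the transfection agent and cells were harvested at 72 h. There were 2 libraries per group, 1 from each of the isolates I90-10 and I90-79, so every isolate had 1 control and 1 knockdown library. The methods name 2 different siRNAs for IMR90, and which library received which is not given in the sources used here. The p-values weigh a change against the spread of these 4 libraries within their groups. Where a fit has no term for the isolate, as in the main fit below, this spread includes the difference between the isolates. In bulk RNA, fewer cells of a type and less RNA per cell cannot be told apart.

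The proteasome degrades proteins tagged with ubiquitin. Its 20S core is a barrel of stacked rings, with outer rings of alpha subunits that gate the entrance and inner rings of beta subunits that hold the proteolytic sites. The 19S regulatory particle binds ubiquitin, removes it and drives the substrate into the core with a ring of ATPases, while PA28 and PA200 are activators that open the gate without ubiquitin or ATP. Subunit genes are known to be transcribed together, and NFE2L1 is the transcription factor that raises them when proteasome activity is short.

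The libraries held 29869338 and 35317010 counted reads (control) and 29861687 and 31086475 (knockdown). HMGB1 itself had an expression of 181 and 237 CPM (read counts scaled to a common library size with TMM) in control and of 16.0 and 18.9 CPM upon knockdown. This was a log2 fold change of −3.59 ± 0.19 (SE; adjusted p = 0.0075, edgeR's quasi-likelihood test), and the adjusted p was 0.049 and 0.032 without knockdown replicate 1 or 2. All 10 fibroblast markers were detected in every library. Of the markers of other cells, 1 of 5 epithelial (EPCAM), 1 of 2 endothelial (VWF) and 0 of 3 leukocyte genes had over 3 counts in every library. The endothelial sum came from VWF alone, at 0.923 to 1.36 CPM in control and 2.59 to 4.16 in knockdown libraries. CDH5 had 0 counts in every library, and PECAM1 was not found by its symbol. The part of VWF-expressing cells in the values below was not tested.

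Upon HMGB1 knockdown, most proteasome genes had slightly higher values, by about the same amount in the core and in the regulatory particle, while PSME4, the gene of the activator PA200, and PSMA5, an alpha subunit, had lower ones. Of the 40 members, 35 had a log2 fold change above 0, against 49.6% of all genes tested, and 5 had one below 0. The median over the members was 0.27, a 1.21-fold higher level, and the median over all genes tested was −0.0054. In 34 members the knockdown value was higher in both isolates (38.9% of all genes tested), and in 4 it was lower in both (39.4%). For 31 members both knockdown libraries lay above both control libraries, which held for 29.8% of all genes tested. For 3 members, PSMA5, PSME4 and PSMG2, both lay below, as for 30.2% of all genes tested. The members were set together with earlier results of these data known, so these counts describe the list and are not a test of it.

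No single member passed the threshold in the main edgeR fit, which had no term for the isolate. Calling took an adjusted p below 0.01 together with a log2 fold change beyond 0.6 in either direction, and 0 of 40 were called higher and 0 lower by edgeR's quasi-likelihood test, where 0.0649% and 0.136% of all genes were called. At an unadjusted p below 0.05, 15 members were higher (13.6% of all genes tested) and 2 lower (14.7%). At an adjusted p below 0.05, 0 were higher (3.94%) and 1 lower (4.5%), which was PSME4. With the isolate as a replicate block, 1 member was called higher, PSMB7 (6.68% of all genes tested), and 1 lower, PSME4 (7.84%). The same 1 and 1 were called by DESeq2 (4.73% and 5.31%), by DESeq2 with the block (6.28% and 7.09%) and by edgeR with no filter on low counts (4.08% and 4.65%). The study used RUVs followed by DESeq2. With RUVs rewritten here from its published description, DESeq2 called 0 higher and 1 lower, PSME4 (5.69% and 6.07%). Counted at an adjusted p below 0.05 and any fold, the block gave 18 members higher (15.9%) and 2 lower (16.3%). A two-sided exact permutation test of 2 against 2 libraries cannot give a p below 0.333, so none is given for single genes.

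**Figure D1:**
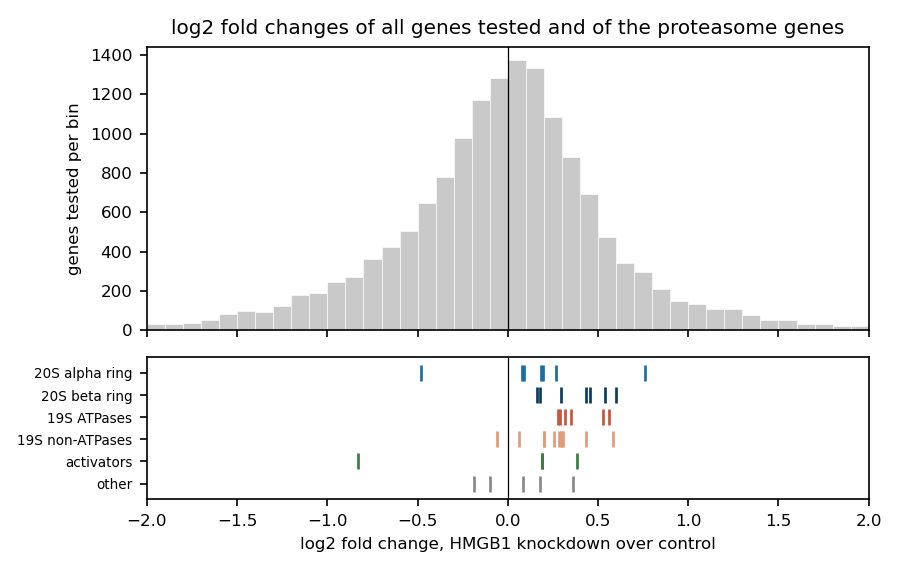
The upper panel counts all genes tested by their log2 fold change (knockdown over control) in bins, with 314 genes beyond the range of −2 to 2 not drawn. In the lower panel each tick is 1 of the 40 proteasome genes, by class ("other" holds the chaperone, assembly factors and inhibitor). Most ticks lie to the right of 0, with PSME4 at −0.83 and PSMA5 at −0.48 far to the left.

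**Figure D2:**
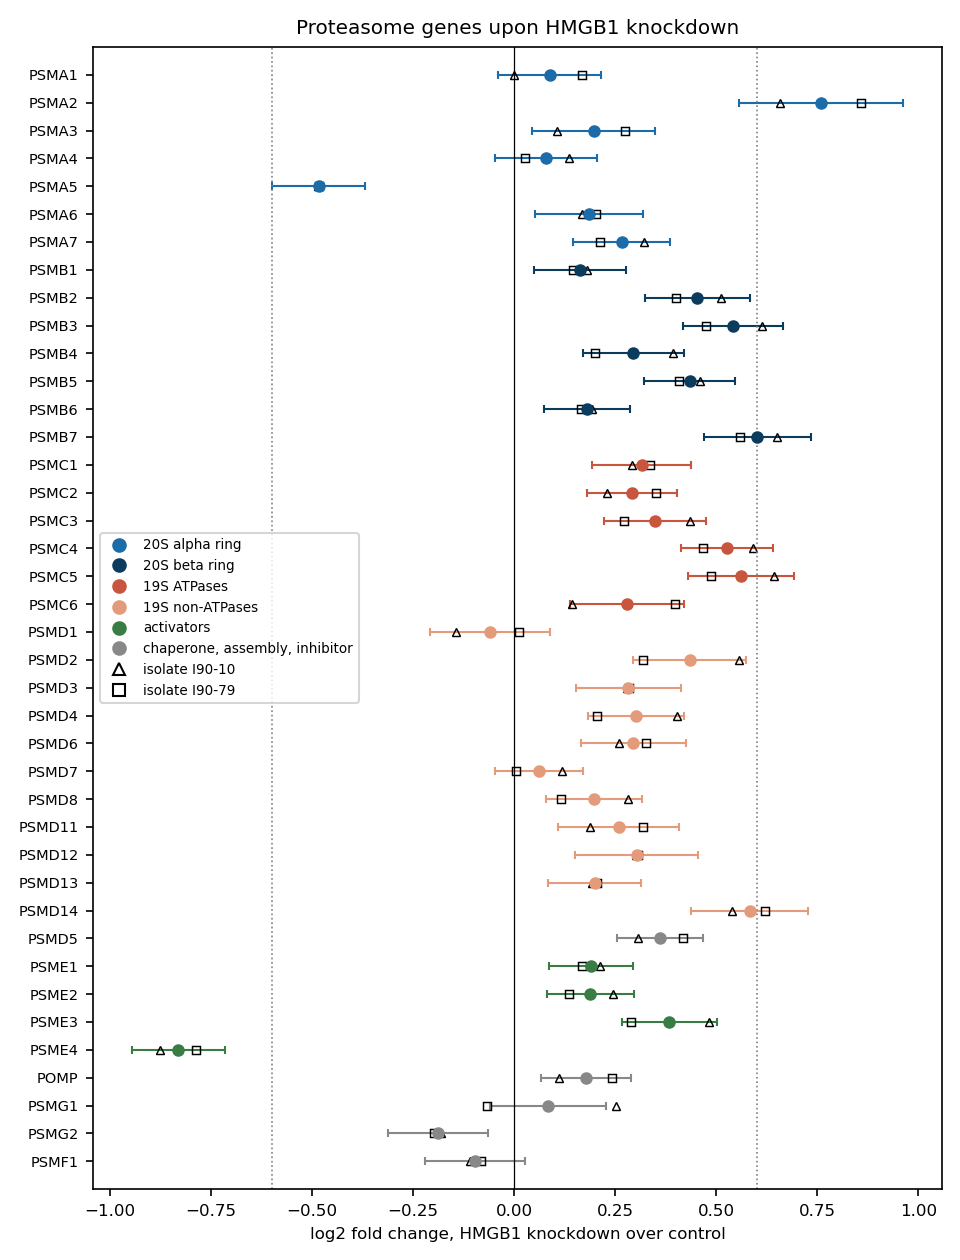
Log2 fold change of each member (knockdown over control). Filled points with bars are the edgeR estimate ± SE over the 4 libraries, open triangles the isolate I90-10 and open squares I90-79, and dotted lines mark −0.6 and 0.6. In all genes but PSMD1 and PSMG1 both isolates lie on the same side of 0.

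The regions upstream of 3 members are printed to show the sequence before genes of both directions. The word TGACNNNGC is the core of the antioxidant response element, which NFE2L1 and its relatives recognise. Capitals mark the word on either strand. Shown are the 250 bases before the RefSeq start (GRCh38.p14), the most upstream one where a gene has several, of the 2 higher and 1 lower members holding it there with the smallest p, PSMB3 at chr17:38752491-38752740 (+ strand), PSMD5 at chr9:120842923-120843172 (− strand) and PSME4 at chr2:53970994-53971243 (− strand).
PSMB3: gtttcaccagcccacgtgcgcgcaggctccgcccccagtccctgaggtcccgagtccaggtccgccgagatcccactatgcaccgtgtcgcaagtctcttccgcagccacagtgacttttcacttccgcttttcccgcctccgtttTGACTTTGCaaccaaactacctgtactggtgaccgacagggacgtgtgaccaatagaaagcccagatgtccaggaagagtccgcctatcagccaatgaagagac
PSMD5: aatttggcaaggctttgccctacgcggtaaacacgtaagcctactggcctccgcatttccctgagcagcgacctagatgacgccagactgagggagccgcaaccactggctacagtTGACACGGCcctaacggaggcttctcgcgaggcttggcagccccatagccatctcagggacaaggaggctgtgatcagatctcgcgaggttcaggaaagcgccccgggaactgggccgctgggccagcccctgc
PSME4: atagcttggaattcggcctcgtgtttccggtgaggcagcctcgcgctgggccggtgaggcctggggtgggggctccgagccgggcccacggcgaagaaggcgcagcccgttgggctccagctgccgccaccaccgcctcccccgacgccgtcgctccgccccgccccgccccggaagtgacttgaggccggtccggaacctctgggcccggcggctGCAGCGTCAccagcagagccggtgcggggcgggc

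In these sequences the word starts 104 bases before the start of PSMB3, 134 before that of PSMD5 and 34 before that of PSME4. These genes were picked for holding the word and for both directions. The printed sequences therefore cannot show whether the word goes with either direction. Of the 40 members, 35 had RefSeq windows of 300 bases, and the others (PSMA7, PSMB1, PSMB6, PSMB7 and PSMD4) are named only. The word was in 13 of the 43 member windows (30.2%) and in 13.3% of all 35116 windows, where 7 members had windows at several starts. At the most upstream start alone, 11 members held it, of which 8 had higher and 3 lower values, with a median log2 fold change of 0.19, and the 24 without it had a median of 0.29. TGAC also opens the words that AP-1 and CREB recognise, so the counts of such words overlap. In all, 13 words were counted. CCGGAAG, the core of ETS sites, was in 30.2% of member windows and 10.3% of all windows. GGAAGTG, which shares 5 letters with it, was in 25.6% and 11.2%, and CCAAT was in 39.5% and 34.6%. Each of the remaining words was in at most 3 member windows. These matches describe letters in the windows, not sites of binding.

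The 20S core genes had a median log2 fold change of 0.23, and their summed level was 1908 and 2095 CPM in control and 2378 and 2486 CPM in knockdown libraries. The beta ring and the alpha ring differed in their values. All 7 beta genes had both knockdown libraries above both control libraries (29.8% of all genes tested), with a median of 0.43. Of the 7 alpha genes, 3 did (PSMA2, PSMA6 and PSMA7), beside the same 29.8%. The median of all 7 alpha genes was 0.18. The summed level of the beta ring was 1191 and 1303 CPM in control and 1608 and 1649 CPM in knockdown libraries, a ratio of 1.31, and the ratio for the alpha ring was 1.07. The alpha sum includes PSMA5, which had lower values, and the levels of PSMA1, PSMA2 and PSMA6 are uncertain, as described below. The difference between the rings was not tested, because subunits are not replicates.

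The 3 proteolytic beta subunits were PSMB5, PSMB6 and PSMB7, which carry the chymotrypsin-like, caspase-like and trypsin-like activities. PSMB7, on chromosome 9 of hg19 from 127115745 to 127177723, had 197 and 225 CPM in control and 310 and 332 CPM in knockdown libraries. The libraries did not overlap. Its log2 fold change was 0.60 ± 0.13 (SE; adjusted p = 0.0543, edgeR), and 0.60 ± 0.09 with an adjusted p of 0.0021 under the replicate block, where it lay just over the limit of 0.6. Over the alternatives its adjusted p ranged from 2.3e-05 to 0.22.

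PSMB5 had 194 CPM in both control libraries and 266 and 258 CPM in the knockdown libraries, a log2 fold change of 0.43 ± 0.11 (adjusted p = 0.0764, edgeR). PSMB6 had 134 and 138 CPM in control and 153 and 155 CPM in knockdown libraries, at 0.18 ± 0.11 (adjusted p = 0.324, edgeR). Both genes had knockdown libraries above the control libraries without overlap. Among the other beta genes, which shape the ring and have no proteolytic site of their own, PSMB3 had 98.3 and 113 CPM in control and 150 and 157 CPM in knockdown libraries. The log2 fold change was 0.54 ± 0.12 (adjusted p = 0.0595, edgeR), and those of PSMB1, PSMB2 and PSMB4 were 0.16, 0.45 and 0.29.

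PSMA5, on chromosome 1 of hg19 from 109941653 to 109969062, was the alpha gene with lower values. It had 125 and 135 CPM in control and 89.0 and 96.7 CPM in knockdown libraries, and the libraries did not overlap. Its log2 fold change was −0.48 ± 0.12 (adjusted p = 0.0653, edgeR), with −0.49 in I90-10 and −0.48 in I90-79. With the replicate block its adjusted p was 0.0055 at the same size, which is within the limit on the fold change of 0.6. Per length, in RPKM (CPM divided by the exonic length in kilobases), PSMA5 was also the lowest of the 11 core genes with under 10% exonic overlap in every library. That length counts every annotated exon, 5737 bases for PSMA5 and 1179 to 3839 for the other genes of this set. The rank depends on it. Set against the geometric mean RPKM of PSMA3, PSMA4 and PSMA7, the level of PSMA5 was 35.1% and 34.1% in control and 22.0% and 21.7% in knockdown libraries.

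PSMA2 had the largest log2 fold change of the members, 0.76 ± 0.20 (adjusted p = 0.0823, edgeR), but few reads. It had 4.09 and 3.99 CPM in control and 6.44 and 7.24 CPM in knockdown libraries, with as few as 120 reads. Of its exonic bases, 34.7% overlap other genes, among them MRPL32, and a read that falls on such bases may be left out of the count. The same holds for PSMA1 (32.9%) and PSMA6 (14.2%), at log2 fold changes of 0.09 and 0.18, so the levels of these 3 genes are uncertain. PSMA7, the alpha gene with the highest level per length, had 222 and 243 CPM in control and 277 and 282 CPM in knockdown libraries, and PSMA3 and PSMA4 had log2 fold changes of 0.20 and 0.08.

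**Figure D3:**
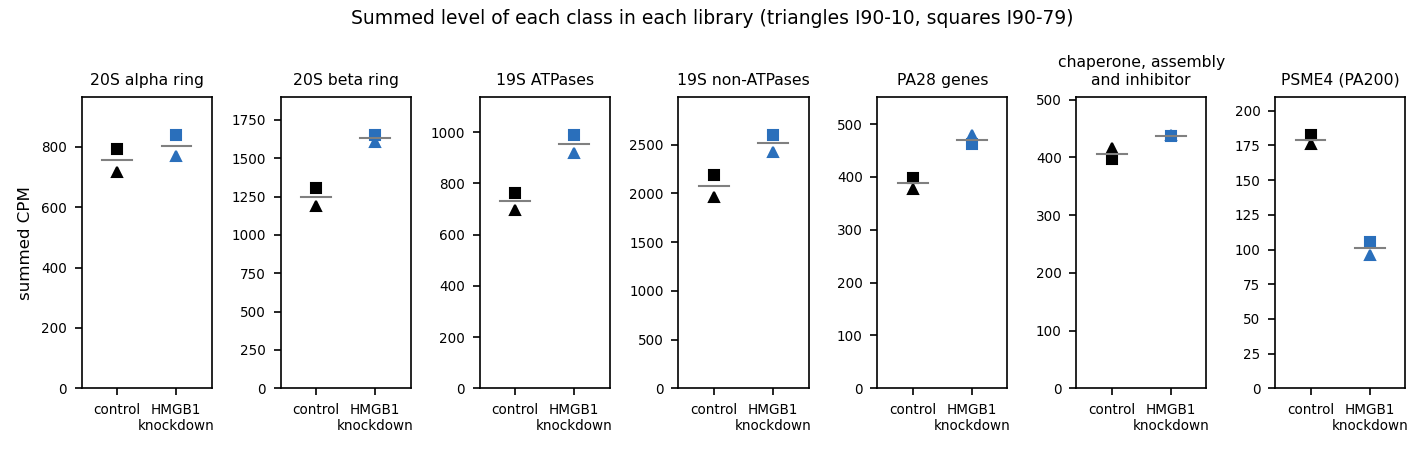
Summed CPM of each class, and CPM of PSME4, in each library. Triangles are I90-10 and squares I90-79, black for control and blue for knockdown, and grey lines are the means of 2 libraries, with each axis starting at 0. All classes but the alpha ring have both knockdown libraries above both control libraries, and PSME4 has both below. In the alpha ring the libraries overlap.

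The 19S regulatory particle had a median log2 fold change of 0.30. Of its 17 genes, 16 had both knockdown libraries above both control libraries, against 29.8% of all genes tested. The summed level of the particle was 2662 and 2950 CPM in control and 3347 and 3582 CPM in knockdown libraries. The products of the 6 ATPase genes form the unfolding ring at the base of the particle. All 6 had both knockdown libraries above both control libraries (29.8% of all genes tested). Their log2 fold changes ran from 0.28 for PSMC6 to 0.56 for PSMC5. PSMC4 had the smallest p of them. It had 111 and 122 CPM in control and 167 and 169 CPM in knockdown libraries, a log2 fold change of 0.53 ± 0.11 (adjusted p = 0.0527, edgeR). PSMC5 overlaps FTSJ3 with 19.5% of its exonic bases.

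Among the 11 non-ATPase genes the median was 0.28. PSMD14, the deubiquitinase of the lid that cuts ubiquitin from the substrate, had 120 and 136 CPM in control and 174 and 209 CPM in knockdown libraries. These did not overlap, and the log2 fold change was 0.58 ± 0.14 (adjusted p = 0.0711, edgeR). PSMD2, a scaffold of the base and the member with the highest CPM, had 436 and 503 CPM in control and 642 and 628 CPM in knockdown libraries, at 0.44 ± 0.14 (adjusted p = 0.120, edgeR). PSMD1, another scaffold of the base whose exonic bases overlap HTR2B in 10.8%, was the one 19S gene without higher values. It had 249 and 273 CPM in control and 225 and 275 CPM in knockdown libraries, which overlapped. Its log2 fold change of −0.06 ± 0.15 had opposite signs in the isolates, −0.15 in I90-10 and 0.01 in I90-79, and it turned positive without control replicate 2 or knockdown replicate 1.

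The activators went both ways. The PA28 alpha and beta genes PSME1 and PSME2, whose products are linked with antigen processing in the cytoplasm, had log2 fold changes of 0.19 ± 0.10 and 0.19 ± 0.11. PSME3, the gene of the nuclear PA28 gamma, had 162 and 177 CPM in control and 226 and 217 CPM in knockdown libraries, at 0.38 ± 0.12 (adjusted p = 0.109, edgeR). All 3 PA28 genes had knockdown libraries above the control libraries without overlap (29.8% of all genes tested). Their summed level was 377 and 398 CPM in control and 479 and 462 CPM in knockdown libraries, a ratio of 1.21, beside ratios of 1.22 for the core and 1.23 for the regulatory particle.

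PSME4, on chromosome 2 of hg19 from 54091204 to 54197977, encodes PA200, a nuclear activator linked with the breakdown of acetylated histones. It had 176 and 182 CPM in control and 95.9 and 106 CPM in knockdown libraries. Both knockdown values lay far below both control values, and the isolates gave log2 fold changes of −0.88 and −0.79. The edgeR estimate was −0.83 ± 0.11 (adjusted p = 0.0219), a 1.78-fold lower level that misses the limit of 0.01. With the replicate block the adjusted p was 4.8e-04 at −0.83 ± 0.09. Over the alternatives the adjusted p ranged from 1.5e-08 to 0.12, the highest when a knockdown library was left out.

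Per length, PSME4 stood lower against the core upon knockdown, while the ratios of the PA28 genes moved less. The RPKM of PSME4 was 24.6% and 23.1% of the geometric mean of 11 core genes in control and 11.0% and 11.5% in knockdown libraries. For PSME3 these ratios were 47.2% and 47.1% in control and 54.3% and 49.5% in knockdown libraries, and for the geometric mean of PSME1 and PSME2 60.9% and 56.5% in control and 58.7% and 54.0% in knockdown libraries. PSME3 thus stood at 1.92 and 2.04 times the RPKM of PSME4 in control and at 4.94 and 4.31 times in knockdown libraries. The geometric mean RPKM of 14 genes of the 19S particle was 44.5% and 44.7% of that of the core in control and 46.3% and 48.1% in knockdown libraries.

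**Figure D4:**
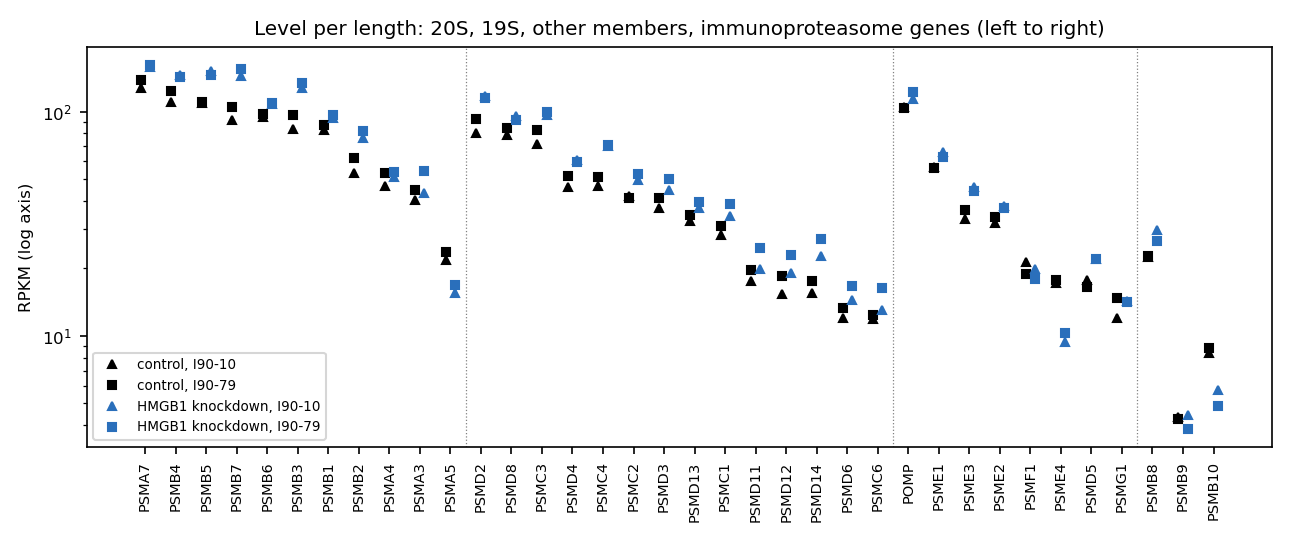
RPKM on a log axis in each library, for the 33 members with under 10% exonic overlap and the 3 immunoproteasome genes. Triangles are I90-10 and squares I90-79, black for control and blue for knockdown, and dotted lines part the 20S genes, the 19S genes, the other members and the immunoproteasome genes. PSMA5, PSME4 and PSMB10 show the blue points clearly below the black ones.

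Of the 5 genes that build or restrain the proteasome, 2 (PSMD5 and POMP) had both knockdown libraries above both control libraries. For 1 (PSMG2) both lay below. The shares over all genes tested were 29.8% and 30.2%, so these counts do not set the class apart. POMP, a chaperone needed for the maturation of the core, had 150 and 148 CPM in control and 162 and 175 CPM in knockdown libraries, at a log2 fold change of 0.18 ± 0.11 (adjusted p = 0.350, edgeR). PSMD5, a chaperone of the 19S base, had 78.6 and 73.2 CPM in control and 97.2 and 97.7 CPM in knockdown libraries, without overlap, at 0.36 ± 0.11 (adjusted p = 0.101, edgeR). PSMG1 and PSMG2 form a chaperone of the alpha ring. PSMG2 had 51.5 and 46.8 CPM in control and 45.5 and 40.8 CPM in knockdown libraries, at −0.19 ± 0.12 (adjusted p = 0.375, edgeR), and overlaps CEP76 in part. PSMG1 was at 0.08 ± 0.14 with opposite signs in the isolates. PSMF1, which inhibits the core in vitro, had 105 and 92.8 CPM in control and 97.3 and 87.7 CPM in knockdown libraries, which overlapped, at −0.10 ± 0.12 (adjusted p = 0.649, edgeR).

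Summed over the 40 members, the libraries held 5539 and 6023 CPM in control and 6738 and 7072 CPM in knockdown, a ratio of 1.19. As a share of all counted reads, without TMM, this was 0.545% and 0.628% in control and 0.652% and 0.710% in knockdown libraries, a ratio of 1.16. The control library of I90-79 thus came close to the knockdown library of I90-10 on this scale. Between the isolates, 0 members were called (0.442% and 1.23% of all genes tested were called higher and lower in I90-79), and the median difference was 0.09 on the log2 scale. Whether the knockdown acted differently in the isolates could not be tested with 1 library per isolate and group.

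The rest of the ubiquitin-proteasome pathway was read from a list of 34 genes, of which 32 were tested. Of these, 18 had higher and 14 lower values, with a median log2 fold change of 0.08, and 0 were called in either direction by edgeR (0.0649% and 0.136% of all genes). At an unadjusted p below 0.05, 6 were higher and 6 lower (13.6% and 14.7% of all genes tested), and at an adjusted p below 0.05, 1 was higher and 2 lower (3.94% and 4.5%). With the replicate block 1 was called higher and 3 lower (6.68% and 7.84%). ZFAND5, a protein that stimulates the 26S proteasome, had 303 and 316 CPM in control and 538 and 557 CPM in knockdown libraries. The libraries did not overlap, at a log2 fold change of 0.82 ± 0.12 (adjusted p = 0.0261, and 5.1e-04 with the block, edgeR).

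UBA6 and UBA1 are the enzymes that activate ubiquitin. UBA6 had 70.0 and 66.4 CPM in control and 33.9 and 40.1 CPM in knockdown libraries, a log2 fold change of −0.88 ± 0.13 (adjusted p = 0.0260, and 8.9e-04 with the block, edgeR), while that of UBA1 was 0.39 ± 0.12. UBQLN2, a shuttle that carries ubiquitin-tagged proteins to the proteasome, had 84.1 and 70.0 CPM in control and 47.9 and 44.9 CPM in knockdown libraries. The log2 fold change was −0.73 ± 0.14 (adjusted p = 0.0398, and 0.0013 with the block, edgeR). NFE2L1 had 505 and 442 CPM in control and 384 and 350 CPM in knockdown libraries, at −0.37 ± 0.14 (adjusted p = 0.165, edgeR). Its libraries did not overlap, with lower values upon knockdown. Any link of its level with the values of the subunit genes was not tested.

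The immunoproteasome replaces the proteolytic beta subunits with PSMB8, PSMB9 and PSMB10, mostly upon interferon. PSMB10, the counterpart of PSMB7, had 15.5 and 16.3 CPM in control and 10.6 and 9.03 CPM in knockdown libraries, at −0.70 ± 0.17 (adjusted p = 0.0642, and 0.0083 with the block, edgeR). Its RPKM was 9.13% and 8.41% of that of PSMB7 in control and 3.97% and 3.16% in knockdown libraries, though 34.8% of its exonic bases overlap another gene. PSMB8, set against PSMB5, stood at 20.5% and 20.7% in control and 19.7% and 18.2% in knockdown libraries. PSMB9, set against PSMB6, stood at 4.62% and 4.39% in control and 4.14% and 3.54% in knockdown libraries. Their log2 fold changes were 0.31 ± 0.12 and −0.05 ± 0.16 (adjusted p = 0.157 and 0.864, edgeR), and PSMB8 shares 21.2% of its exonic bases with its antisense gene.

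**Figure D5:**
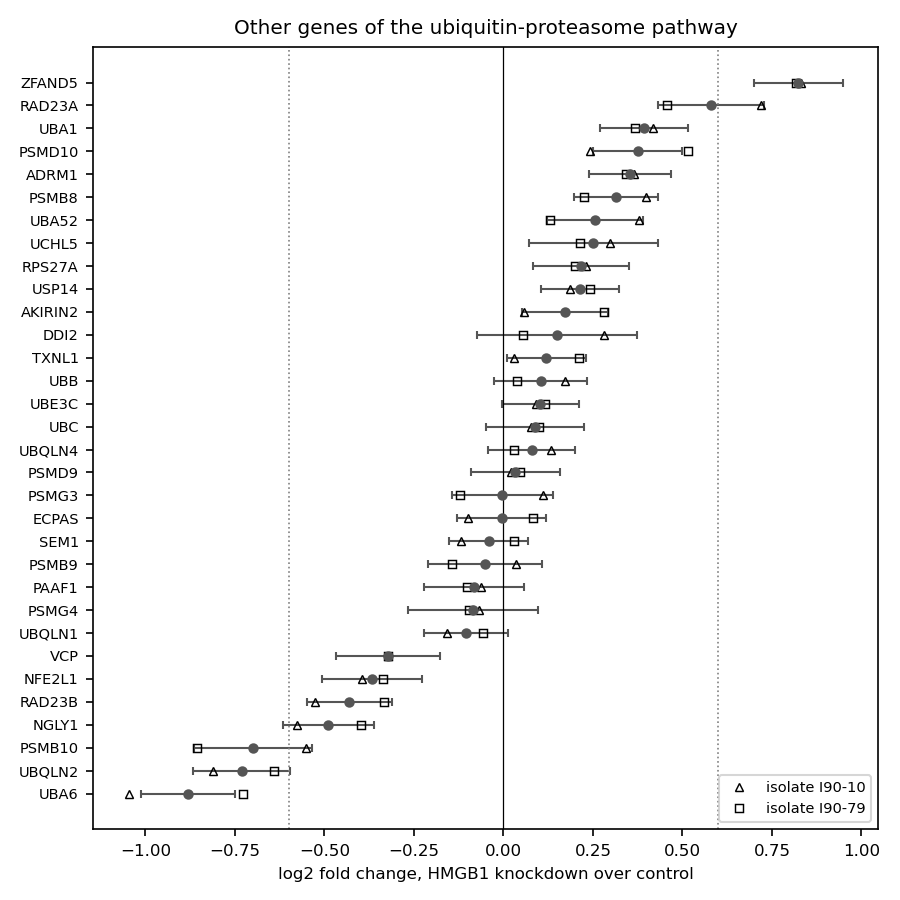
Log2 fold change (knockdown over control) of the 32 tested genes of the pathway list, sorted by value. Filled points with bars are the edgeR estimate ± SE over 4 libraries, triangles I90-10, squares I90-79 and dotted lines −0.6 and 0.6. ZFAND5 lies highest at 0.82 and UBA6 lowest at −0.88.

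The 3′ UTRs of the members were searched for GCAGTT, a word whose presence went with lower values over all genes in an earlier search of these same data. Genes with it had a median log2 fold change of −0.16 and genes without it 0.07. These medians restate that search and are no test of the word. They were not matched for the length of the 3′ UTR. The sites of PSMA5, the subunit gene with the lowest log2 fold change, are printed with the word in capitals, site a at chr1:109944488-109944511 and site b at chr1:109943785-109943808 of hg19, both on the − strand.
PSMA5 site a: tacataaagGCAGTTctgaaataa
PSMA5 site b: aattcagaaGCAGTTtacattaga

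Of the 35 members with a 3′ UTR of at least 100 bases, 7 held the word (20%), against 36.2% of 12338 genes tested with such a UTR. These members also had shorter 3′ UTRs, with a median of 434 bases against 1417. PSMA5 and PSMF1, with 2 and 4 copies, had lower values, and the other 5 members with the word had higher values. Of the 28 members without it, 3 had lower values, PSME4 among them with 0 copies.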

How the data were processed

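RNA was poly(A)-selected, made into TruSeq libraries and sequenced paired-end. Per the study's methods, the authors mapped reads to hg19 with default settings of STAR and deposited raw counts of unique reads per gene from featureCounts, 1 file per library. Versions, strand setting and the treatment of read pairs are not given in the sources used here. Counts on genes of a chromosome named MT were 0 in every library. Whether this comes from naming, annotation or mapping was not checked, so it says nothing of the RNA. Reads on pseudogenes of the members came to 681.

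Counts were tested with edgeR 4.0.16 (R 4.3.3, limma 3.58.1), with filterByExpr, TMM, the quasi-likelihood test on all 4 libraries and the Benjamini-Hochberg adjustment over 15398 genes. The main fit had no term for the isolate. The limits for a call were those of the study, 0.01 for the adjusted p and 0.6 for the size of the log2 fold change. The study set them on RUVs followed by DESeq2, not on edgeR. Alternatives were DESeq2 1.42.0, RUVs with 1 factor, other scalings and filters, and leaving out each library. The scripts were tested on simulated counts with the same spread for every gene and no difference between isolates. That test does not show how well changes of the size seen here are found. CPM and RPKM used TMM-scaled totals and the deposited exonic lengths. These lengths count every annotated exon of a gene, used or not. RPKM ratios between genes therefore depend on the annotation and are not ratios of transcripts.

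Replicate numbers follow the isolate named in the labels, so they pair the libraries (the differences of replicate 1 from replicate 2 had a correlation of 0.46 between the groups, over genes). The members, lists and words were chosen with earlier results of these data known. Named genes are HMGB1, all members (in each library for the smallest p of each class and direction, the proteolytic subunits, PSMF1 and called members), the immunoproteasome genes, NFE2L1 and called pathway genes. Others were picked after their values were seen, namely PSMA7, PSMB3, PSMD2 and UBA1. Positions are hg19, and promoter windows are RefSeq on GRCh38.p14. The 3′ UTRs are from GENCODE lifted to hg19.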

Additional observations from a re-analysis of the deposited data

How the results depend on the processing

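The number of proteasome genes called higher and lower, 0 and 0 in the report, was 1 and 1 with no filter on low counts, with the replicate block, with DESeq2 and with DESeq2 and the replicate block. It was 0 and 1 with RUVs followed by DESeq2 and with an adjusted p below 0.05. In the pathway list, 0 genes were called in the report, 4 with the replicate block and 3 in each of the other 5 settings just named. The replicate block changed no other call among the 48 genes followed. The cause of these moves was not tested. Over all genes, 10 were called higher and 21 lower in the report, 1028 and 1207 with the replicate block, 728 and 818 with DESeq2, 967 and 1091 with DESeq2 and the block, 876 and 934 with RUVs, 1118 and 1275 with no filter, 30 and 68 with edgeR's other deviance setting, 118 and 181 or 305 and 337 without control replicate 1 or 2, 6 and 16 with at least 10 counts in every library, and 0 and 0 without either knockdown library.

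The number of members above 0 ran from 33 to 36 over all 13 alternatives, a count followed only after the data had been seen. The median of the members ran from 0.20 to 0.31, that of the core from 0.18 to 0.30, that of the regulatory particle from 0.22 to 0.40 and that of the activators from 0.16 to 0.22. The median of the assembly factors, chaperone and inhibitor ran from −0.0074 to 0.17, the lowest without control replicate 1. Leaving out each library turned the sign of 5 genes near 0, with ranges of −0.014 to 0.18 for PSMA1, −0.015 to 0.18 for PSMA4, −0.21 to 0.075 for PSMD1 (0.0078 without control replicate 2), −0.059 to 0.24 for PSMG1 and −0.16 to 0.051 for PSMB9. With 1 library left in a group, it is assumed to vary like the other group. Outliers cannot be tested in groups of 2. Each member rested on 120 reads or more in every library.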
